A study of Mus musculus with 8 samples.

Results

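Adipose precursors (APs) are the cells of fat tissue that give rise to adipocytes, and 9 of their marker genes are described here in mouse APs from 2 depots on 2 diets. The 9 genes were chosen by name, as known markers, with earlier results of these arrays known: Dpp4, Pi16, Cd55, Anxa3, Sema3c and Dact2 mark the interstitial progenitor, and Icam1, F3 and Clec11a mark committed or regulatory precursors. They are 9 of the 19938 genes that a single-symbol probe set measured. Each of the 9 had 1 probe set, a group of probes that reads 1 transcript, and all 9 exceeded a log2 level of 7 on at least 3 arrays.

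RNA came from APs of male C57BL/6J mice, a common inbred strain, aged 7 to 8 weeks. The 4 groups were SD scAP and HFD scAP, from the inguinal subcutaneous depot (scWAT), and SD viAP and HFD viAP, from the perigonadal visceral depot (viWAT), where SD is standard diet and HFD is high fat diet, each given for 3 days. Every group had 2 arrays and every array held RNA pooled from 3 mice. All groups shared the same selection with magnetic beads, first away from CD45 and CD31 and then toward SCA-1, so both the interstitial and the committed cells are mixed in each pool. Arrays are named by the number in their labels, from 1 to 8. A level is the log2 of the deposited intensity, so that a difference of 1 is a 2-fold difference.

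The precursors of adult fat are not a single kind of cell. DPP4-positive interstitial progenitors lie in the connective tissue that surrounds the fat lobules and are thought to feed a pool of ICAM1-positive committed preadipocytes, which lie closer to vessels and express early adipocyte genes. A further CD142-positive population, named for the protein of F3, has been described as regulatory because it can restrain adipocyte formation in its neighbours. In a bulk sample, fewer cells of a type and less RNA per cell cannot be told apart.

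The 250 bases before an annotated start of transcription are shown for Dpp4, Pi16 and Sema3c, interstitial genes whose levels differed between depots or diets, for Icam1, which names the committed cell, and for F3, which differed between depots in the opposite direction. They were read from RefSeq promoter windows of build GRCm38.p6, which held a window for 8 of the 9 genes. The Dpp4 window is chr2:62412232-62412481 on the minus strand, and the others lie on the plus strand: Pi16 at chr17:29318632-29318881, Sema3c at chr5:17574566-17574815, Icam1 at chr9:21015690-21015939 and F3 at chr3:121723287-121723536. For Sema3c, Icam1 and F3 the window ends just before the listed gene span. For Dpp4 and Pi16 it belongs to a start further inside, so that 84 and 86 of its bases lie within the gene span of the same build. Capitals mark the letters of any of 4 motifs searched on both strands: the GC box GGGCGG, the AP-1 motif TGANTCA, the TATA box TATAAA and an NF-kB-like motif of GGG and CC with 5 bases of any kind between them.
Dpp4: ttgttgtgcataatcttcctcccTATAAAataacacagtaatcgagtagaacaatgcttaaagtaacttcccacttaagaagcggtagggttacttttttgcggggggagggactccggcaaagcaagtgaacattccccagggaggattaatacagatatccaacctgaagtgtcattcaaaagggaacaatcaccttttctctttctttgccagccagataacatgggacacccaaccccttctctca
Pi16: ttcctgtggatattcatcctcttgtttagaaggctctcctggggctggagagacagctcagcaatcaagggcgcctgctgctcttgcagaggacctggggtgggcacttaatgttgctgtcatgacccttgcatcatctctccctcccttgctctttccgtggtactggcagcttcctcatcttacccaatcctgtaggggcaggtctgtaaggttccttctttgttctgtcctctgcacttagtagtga
Sema3c: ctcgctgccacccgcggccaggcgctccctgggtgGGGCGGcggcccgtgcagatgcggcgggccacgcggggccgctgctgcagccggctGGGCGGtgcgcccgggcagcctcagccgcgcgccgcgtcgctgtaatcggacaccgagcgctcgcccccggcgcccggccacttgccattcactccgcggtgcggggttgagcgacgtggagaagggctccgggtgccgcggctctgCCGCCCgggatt
Icam1: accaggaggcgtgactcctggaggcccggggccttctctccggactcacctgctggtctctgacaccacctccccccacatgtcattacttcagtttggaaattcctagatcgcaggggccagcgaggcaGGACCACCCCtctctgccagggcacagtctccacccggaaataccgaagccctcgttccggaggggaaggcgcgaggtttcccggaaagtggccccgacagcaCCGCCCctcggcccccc
F3: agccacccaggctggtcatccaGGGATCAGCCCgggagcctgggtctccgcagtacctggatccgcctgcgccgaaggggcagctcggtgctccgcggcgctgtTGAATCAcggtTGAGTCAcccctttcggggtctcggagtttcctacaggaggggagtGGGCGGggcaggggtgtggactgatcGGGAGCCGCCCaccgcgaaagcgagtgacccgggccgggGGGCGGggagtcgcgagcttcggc
The F3 window held 2 AP-1 matches, whose first bases lay at -146 and -135 from the start, together with 3 GC boxes and 4 NF-kB-like matches that fell in overlapping pairs. Sema3c held 3 GC boxes, and Icam1 held 1 GC box and 1 NF-kB-like match, at -120. Dpp4 held only a TATA box match, at -227, and Pi16 held none of the 4 motifs. Among all 32851 windows of this length, 32.7% held a GC box, 6.75% the AP-1 motif, 45.8% the NF-kB-like motif and 12.4% the TATA box, so AP-1 was the least common of the F3 motifs. The arrays do not measure binding, and a match is only a run of letters.

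The arrays held precursor RNA. Of the 8 measured precursor markers, 7 exceeded a log2 level of 7 on all 8 arrays, among them Pdgfra with a mean of 11.39 and Cd34 with a mean of 12.01. The exception was Cd24a, which stayed below 7 on every array, with a mean of 5.86. Ly6a, the gene of the SCA-1 used in the selection, was listed but had no single-symbol probe set. Of 9 leukocyte markers, 8 stayed below 7 on every array, including Ptprc with a mean of 5.14, and Cd68 exceeded it on 2 arrays, at 7.03 on SD scAP replicate 1 and 7.84 on SD viAP replicate 3. Of 6 mature adipocyte markers, 5 stayed below 7 on every array, including Adipoq with a mean of 5.21, and Plin4 exceeded it on 3, at 7.68 and 7.74 in SD scAPs and 8.01 on SD viAP replicate 4. One array did not have the depot genes of its label. Tbx15, a transcription factor gene typical of subcutaneous fat, was at 9.77 on the array labelled SD viAP replicate 4, at 9.34 to 9.67 on the 4 scAP arrays and at 3.91 to 4.70 on the other 3 viAP arrays. Tcf21, typical of visceral fat, was at 5.32 on that array, at 5.04 to 5.52 in scAPs and at 9.61 to 10.61 on the other viAP arrays. Calls of the 9 genes and most counts of the gene lists that use this array are therefore given with and without it. Differences and changes of single list genes include it unless stated.

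**Figure D1:**
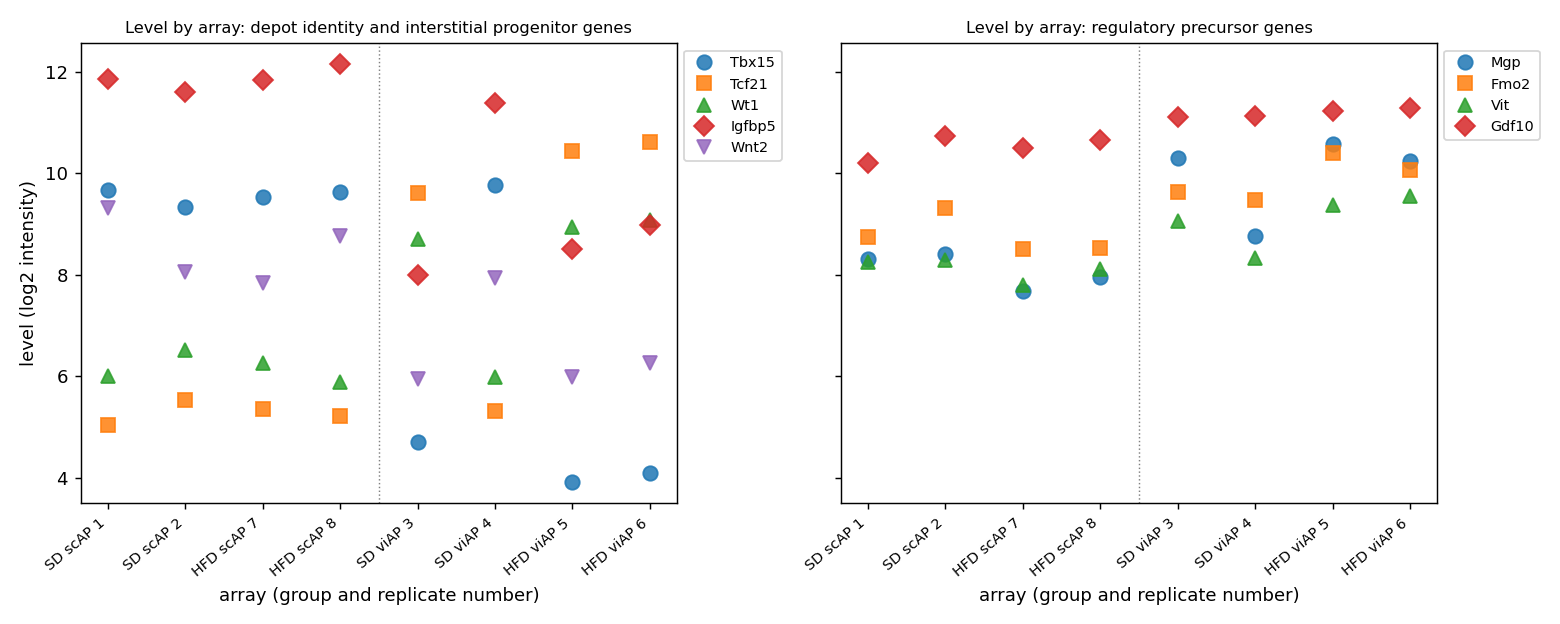
Level (log2 intensity) of depot identity genes and 2 interstitial progenitor genes (left) and of 4 regulatory precursor genes (right) on each array, with scAP arrays left and viAP arrays right of the dotted line. SD viAP 4 sits with the scAP arrays for Tbx15, Tcf21, Wt1, Igfbp5 and Wnt2, and closer to them than to the other viAP arrays for Mgp and Vit.

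Dpp4, Pi16, Anxa3 and Sema3c were lower in viAPs than in scAPs when both diets were averaged, and F3 was higher. Dpp4 encodes a cell surface peptidase that trims chemokines such as CXCL12. Its level was 11.41 and 10.62 in SD scAPs and 10.26 and 11.13 in HFD scAPs, against 8.55 and 9.98 in SD viAPs and 9.35 and 9.39 in HFD viAPs. All 4 viAP arrays were below all 4 scAP arrays, with SD viAP replicate 4 highest among the viAPs. The difference between depots was -1.75 on SD (standard error 0.46, adjusted p = 0.0733 from limma) and -1.32 on HFD (standard error 0.46, adjusted p = 0.103 from limma). Averaged over both diets it was -1.54 (standard error 0.33, adjusted p = 0.017 from limma), which is 2.90-fold lower. This average was added after the values had been seen.

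Pi16 encodes a peptidase inhibitor family protein of the fibroblast surface. It was at 10.27 and 9.70 in SD scAPs and 10.23 and 10.60 in HFD scAPs, and at 8.64 and 9.46 in SD viAPs and 9.20 and 9.26 in HFD viAPs. Again every viAP array lay below every scAP array. On HFD it was 2.27-fold lower in viAPs, a difference of -1.18 (standard error 0.28, adjusted p = 0.034 from limma), and on SD the difference was -0.94 (adjusted p = 0.0849 from limma). The average over both diets was -1.06 (adjusted p = 0.013 from limma).

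Anxa3 encodes an annexin that binds membranes in the presence of calcium. Its levels were 11.12 and 10.82 in SD scAPs, 10.68 and 11.22 in HFD scAPs, 9.62 and 10.004 in SD viAPs and 10.43 and 10.46 in HFD viAPs. The depots did not overlap, and the gap between them was wider on SD, at -1.16 (adjusted p = 0.0605 from limma), than on HFD, at -0.50 (adjusted p = 0.162 from limma). The difference between these 2 values, 0.65 (standard error 0.30), did not pass the test (adjusted p = 0.324 from limma). The average over both diets was -0.83 (adjusted p = 0.0125 from limma).

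Sema3c encodes a secreted semaphorin that signals through neuropilins and plexins. It was at 10.68 and 10.04 in SD scAPs, 10.59 and 11.07 in HFD scAPs, 9.04 and 9.78 in SD viAPs and 10.20 and 10.27 in HFD viAPs. Within each diet the viAP arrays were below the scAP arrays, but both HFD viAP arrays were above SD scAP replicate 2. Its difference was -0.95 on SD (adjusted p = 0.086 from limma), -0.59 on HFD (adjusted p = 0.226 from limma) and -0.77 over both diets (adjusted p = 0.0298 from limma).

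Cd55 and Dact2 were the interstitial markers that did not pass in any of these comparisons, and both fell outside the filter of the study's methods because their levels varied little. Cd55, which protects cells from complement, was at 10.23 and 10.06 in SD scAPs, 9.56 and 10.31 in HFD scAPs, 10.59 and 10.02 in SD viAPs and 10.39 and 10.21 in HFD viAPs. The depots overlapped, and the average over both diets was 0.26 with a 95% confidence interval from -0.16 to 0.69. Cd55 thus had the opposite sign to the 5 other interstitial markers. Dact2, a regulator of Dishevelled in WNT signalling, had levels from 7.26 to 7.73 in scAPs and from 6.97 to 7.27 in viAPs. Its depot difference over both diets was -0.38, with a confidence interval from -0.66 to -0.11 that left out 0, but the p adjusted over all probe sets was 0.166 in limma.

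**Figure D2:**
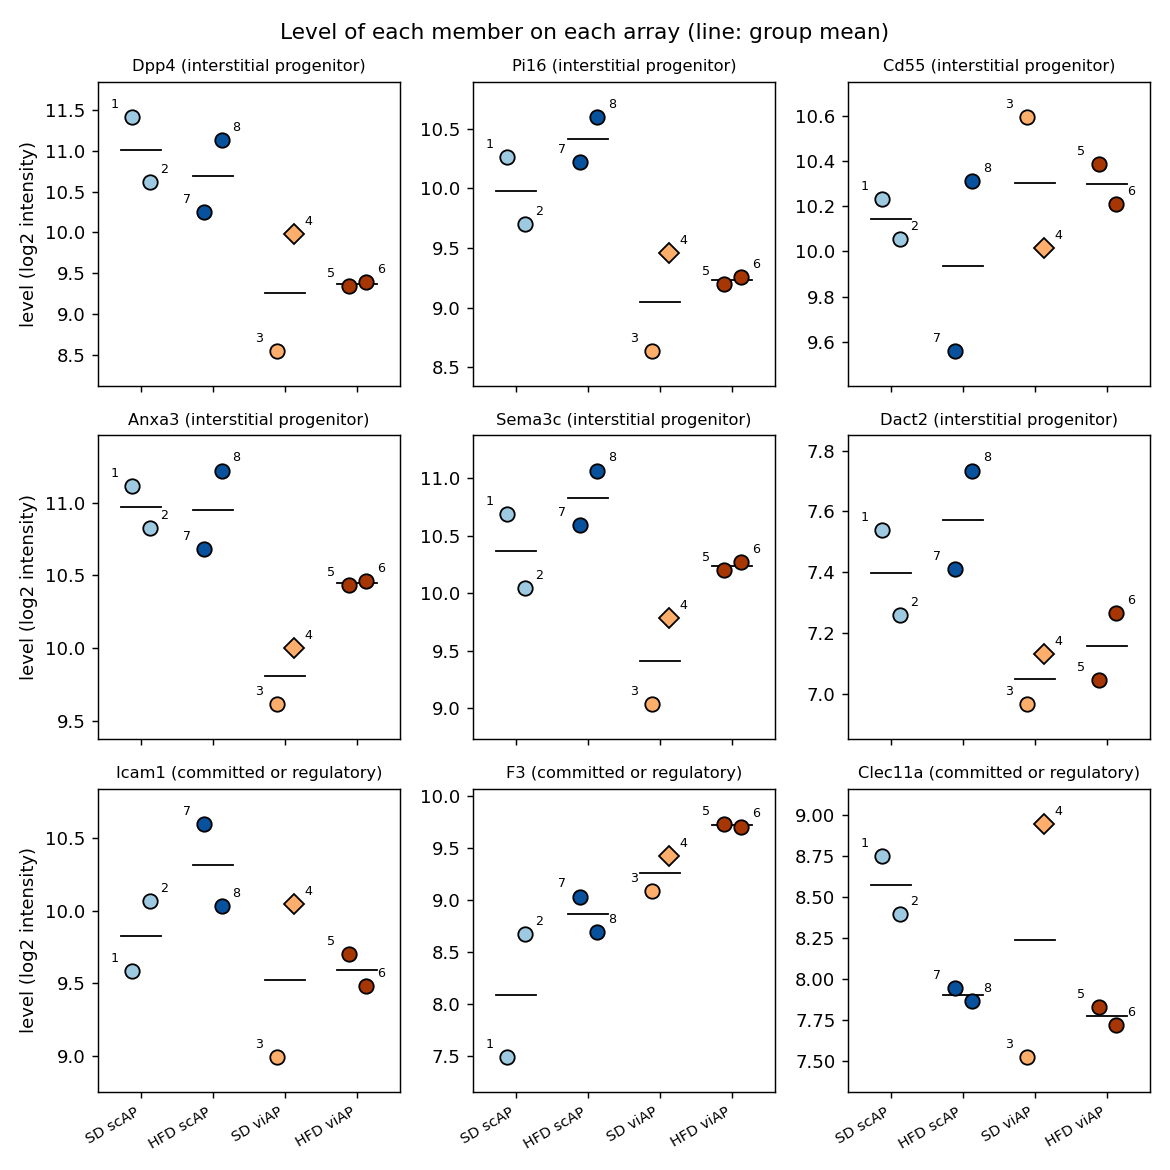
Level (log2 intensity) of the 9 genes on each array, with 1 panel per gene, groups on the horizontal axis, array numbers beside the points and a line at each group mean. Diamonds mark the array labelled SD viAP replicate 4, and Dpp4, Pi16 and Anxa3 are below all scAP arrays on all 4 viAP arrays while F3 is above them.

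F3, which encodes tissue factor, the receptor that starts coagulation, went the other way. It was at 7.49 and 8.68 in SD scAPs, 9.04 and 8.70 in HFD scAPs, 9.09 and 9.43 in SD viAPs and 9.74 and 9.71 in HFD viAPs. All 4 viAP arrays were above all 4 scAP arrays, and the widest spread within a group was that of SD scAPs. The difference was 1.17 on SD (standard error 0.33, adjusted p = 0.0775 from limma), 0.86 on HFD (standard error 0.33, adjusted p = 0.135 from limma) and 1.01 over both diets (standard error 0.23, adjusted p = 0.0203 from limma), or 2.02-fold.

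Icam1 and Clec11a did not pass with all arrays. Icam1, the adhesion molecule that leukocytes bind, was at 9.58 and 10.06 in SD scAPs, 10.60 and 10.03 in HFD scAPs, 8.99 and 10.05 in SD viAPs and 9.70 and 9.49 in HFD viAPs. The depots overlapped on SD and did not on HFD, and the average difference was -0.51 (adjusted p = 0.15 from limma). Its sign was opposite to that of F3. Clec11a, a secreted lectin-like growth factor of skeletal stem cells, was at 8.75 and 8.40 in SD scAPs, 7.94 and 7.86 in HFD scAPs and 7.83 and 7.72 in HFD viAPs. In SD viAPs it was at 7.52 on replicate 3 and at 8.95, its highest level on any array, on replicate 4. Its average depot difference was -0.23 (adjusted p = 0.557 from limma).

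**Figure D3:**
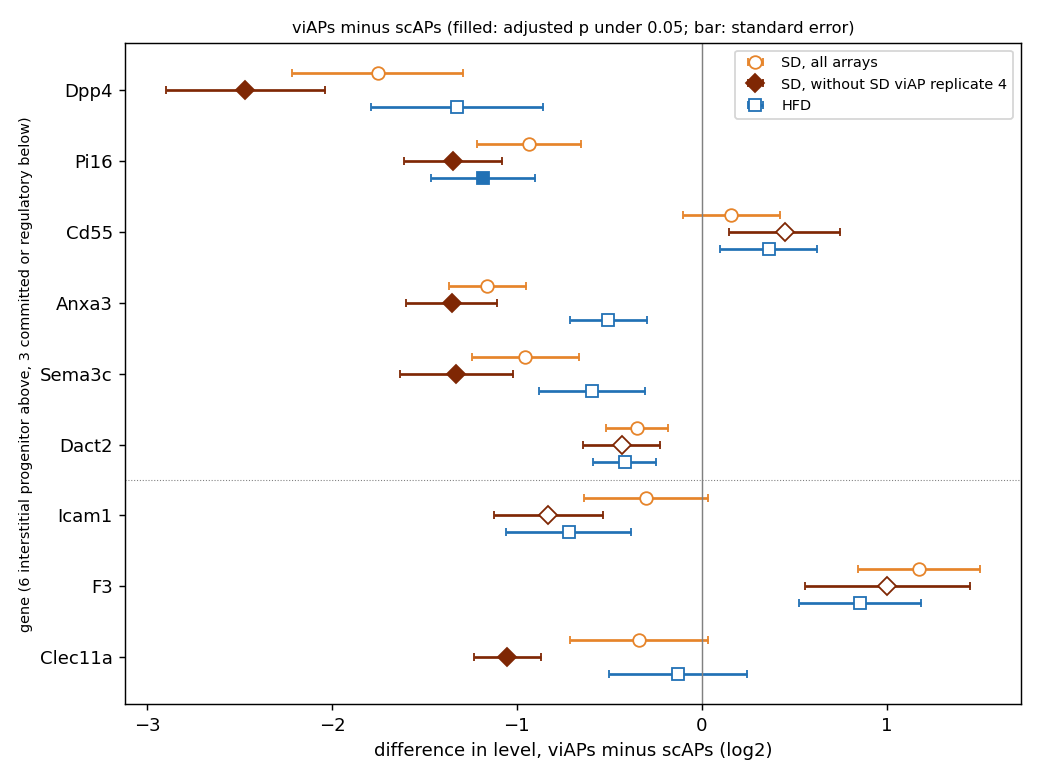
Difference in level between viAPs and scAPs (log2, horizontal axis) for each of the 9 genes on SD with all arrays, on SD with the array labelled SD viAP replicate 4 dropped, and on HFD, with bars of 1 standard error and filled points where the adjusted p was under 0.05. Without that array Dpp4, Pi16, Anxa3, Sema3c and Clec11a pass on SD.

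Against the background of all genes, these counts read as follows. On SD, limma called 0 of the 9 genes between depots, where it called 0.065% of the 3076 probe sets in the filter and 0% of all 21789 with 1 symbol. At an unadjusted p under 0.05 there were 5 genes, and without moderation of the variances 0 were called. On HFD 1 of the 9 was called, beside 10.1% in the filter and 1.51% of all. For the average over both diets 5 of the 9 were called, beside 23.3% in the filter and 1.73% of all. The share of the 9 genes is above both background shares, but all 5 called genes are among the 7 in the filter, which selects variable genes. Dpp4, Pi16, Anxa3 and F3 had depots that did not overlap over 8 arrays, as did 6.7% of the probe sets in the filter and 3.82% of all.

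The array labelled SD viAP replicate 4 moved these counts. Without it the depot difference on SD was -2.47 for Dpp4 (adjusted p = 0.0151 from limma), -1.35 for Pi16, -1.35 for Anxa3, -1.33 for Sema3c and -1.05 for Clec11a, and these 5 genes passed, beside 21.7% of the probe sets in the filter. On HFD, Dpp4 at -1.32 passed with Pi16 when that array was left out of the shared spread, beside 20.2% of the filter. For the average over both diets, 6 genes were then called: Dpp4 at -1.90, Pi16, Anxa3, Sema3c, Icam1 at -0.77 and Clec11a at -0.59, while F3 at 0.93 had an adjusted p of 0.0512 in limma. The share of the filter called for the average then rose to 33%. With that array kept, the SD count also rose without SD scAP replicate 2, as did the share of the filter called. Under a second quantile normalization the SD count was 2, beside 11.3% of the filter. On its own, that array had Dpp4 and Pi16 between the ranges of the other viAPs and the scAPs, Anxa3, Sema3c, Dact2 and F3 inside the viAP range, and Cd55 and Icam1 inside the scAP range. With that array kept, the 5 genes called for the average lost their calls when any 1 of 5 other arrays was left out. These were SD scAP replicate 1, HFD viAP replicates 5 and 6, and HFD scAP replicates 7 and 8. Nearly all probe sets of the filter lost their calls in these refits too, so the loss was not particular to the 9 genes. The signs of the 5 genes were the same under all 15 alternatives.

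Other genes known from the same cell states give the surroundings of these values. Beside the 23.3% of the filter called between depots over both diets, the following counts were found. Of 23 measured interstitial progenitor genes, 19 of them in the filter, 6 were lower and 0 higher in viAPs over both diets, with a median difference of -0.26 beside a median of 0.00092 over all 21789 probe sets. With the array labelled SD viAP replicate 4 dropped, 7 were lower and 1 was higher. Igfbp5, which binds insulin-like growth factors, differed most, at -2.64 (adjusted p = 0.0192 from limma), followed by the WNT ligand gene Wnt2 at -1.96 (adjusted p = 0.0196 from limma). Of 10 regulatory precursor genes, 4 were higher and 1 lower, with 5 of the 10 differences above 0 and a median of -0.03. Those higher were Mgp, an inhibitor of calcification, at 1.88 (adjusted p = 0.0109 from limma), Fmo2 at 1.12, Vit at 0.96 and Gdf10 at 0.67. Each of them had all 4 viAP arrays above all 4 scAP arrays, as F3 did. In the other direction, Meox2 had the lowest difference, -0.89, and Abcg1 had all 4 viAP arrays below all 4 scAP arrays. Without that array, 4 were higher and 3 lower. Of 18 committed preadipocyte genes, 5 were lower and 1 was higher, although 10 of the 18 differences were above 0 and the median was 0.08. The lower genes included the fatty acid transporter gene Cd36 at -2.37 (adjusted p = 0.00944 from limma), Cxcl14 at -1.26 and Plin2, which coats lipid droplets, at -0.90, and the higher gene was Adam12, a metalloproteinase gene, at 0.40. Without that array, 6 were lower and 2 higher. Genes from both ends of the interstitial to committed series were thus among those lower in viAPs.

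Markers of other cells also differed between the depots. Mesothelial markers had a summed intensity of 1082 and 552 on SD viAP replicates 3 and 4, of 917 and 1082 in HFD viAPs and of 408 to 542 on the scAP arrays. These sums include Wt1, the highest of the markers on SD viAP replicate 3 and both HFD viAP arrays, at 8.71, 8.94 and 9.09. Wt1 was at 5.98 on SD viAP replicate 4 and at 5.88 to 6.51 in scAPs, so the sums follow it in large part. Of the 9 mesothelial markers, Wt1, which visceral precursors also express, passed on HFD, and the defining gene Msln was below a log2 level of 7 on every array. Upk3b, another mesothelial marker, was at 7.77 on SD viAP replicate 3 and 7.08 on HFD viAP replicate 6, below 7 on the other 6 arrays, and was called higher in viAPs on SD and over both diets with SD viAP replicate 4 dropped. Endothelial markers summed to 1273 to 1514 on the viAP arrays, 1599 and 1689 in SD scAPs and 2816 and 2835 in HFD scAPs, and 8 of the 12 were called lower in HFD viAPs than in HFD scAPs. Pecam1, which encodes the CD31 used in the depletion, was at 7.78 and 7.70 in HFD scAPs and at 5.70 to 6.38 on the other 6 arrays. The part of these cells in the depot differences of the 9 genes was not tested.

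After 3 days of HFD, Anxa3 and Sema3c rose in viAPs. Anxa3 rose 1.55-fold, a log2 change of 0.64 (standard error 0.21, adjusted p = 0.0245 from limma), and Sema3c rose 1.77-fold, by 0.82 (standard error 0.29, adjusted p = 0.0307 from limma). In both, the 2 HFD arrays were above the 2 SD arrays. F3 had no overlap either, but its change of 0.46 did not pass (adjusted p = 0.222 from limma). Dpp4 changed by 0.11, Pi16 by 0.18, Cd55 by -0.01, Dact2 by 0.11, Icam1 by 0.07 and Clec11a by -0.46, with overlapping groups. The interval for Dpp4 ran from -0.95 to 1.16 and that for Icam1 from -0.69 to 0.84.

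These 2 of 9 genes stand beside a broad change, since limma called 72.7% of the probe sets in the filter and 10.4% of all in viAPs. The median change of the expressed probe sets was 0.30, and 87% of the probe sets in the filter had groups that did not overlap. The median change of the 9 genes was 0.11, beside 0.63 over the filter, so a call in viAPs was not particular to these genes. With the array labelled SD viAP replicate 4 dropped, Anxa3 changed by 0.83 and Sema3c by 1.20, and both were still called. With SD viAP replicate 3 left out in its place, Anxa3 and Sema3c lost their calls. Clec11a was called instead, as a fall with a change of -1.17. Its change was 0.25 with the array labelled SD viAP replicate 4 dropped, so its sign depended on which SD viAP array was kept. A second quantile normalization, which brought the median change of expressed probe sets to 0.07, left 0 of the 9 called, with Anxa3 at 0.32 and Sema3c at 0.51, and turned the uncalled values of Icam1, Dpp4, Pi16 and Dact2 to -0.27, -0.24, -0.17 and -0.0037.

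In scAPs 0 of the 9 genes were called after HFD, where limma called 38.2% of the probe sets in the filter and 1.17% of all. At an unadjusted p under 0.05 there was 1 gene, F3, and without moderation 0 were called. F3 changed by 0.78 (standard error 0.33, adjusted p = 0.0893 from limma), with both HFD arrays above both SD arrays (8.70 against 8.68 at the nearest), and was called after centring each array on its median (adjusted p = 0.0375 from limma). Clec11a changed by -0.67 (standard error 0.37, adjusted p = 0.176 from limma), with both HFD arrays below both SD arrays. When the array labelled SD viAP replicate 4 was dropped, which made the spread shared by the groups smaller for Clec11a, this value was called (adjusted p = 0.0168 from limma). Icam1 changed by 0.49, Sema3c by 0.46, Pi16 by 0.43, Dact2 by 0.17, Anxa3 by -0.02, Cd55 by -0.21 and Dpp4 by -0.32, and the 2 groups overlapped for each of these 7 genes. In this comparison 69.7% of the probe sets in the filter and 40.5% of all had groups that did not overlap.

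**Figure D4:**
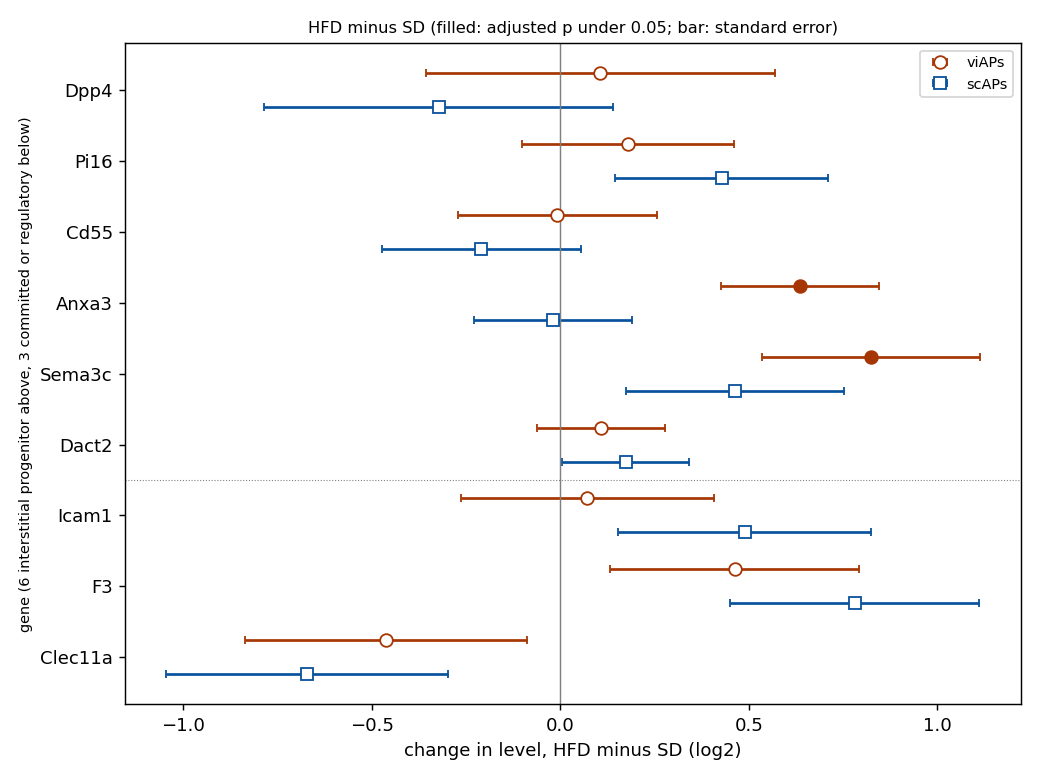
Change in level after HFD (HFD minus SD, log2, horizontal axis) for each of the 9 genes in viAPs and scAPs, with bars of 1 standard error and filled points where the adjusted p was under 0.05. Anxa3 and Sema3c in viAPs are the only filled points.

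The change in viAPs minus the change in scAPs passed for 0 of the 9 genes, at an unadjusted p under 0.05 for 0, and without moderation for 0. The background was 0% of the probe sets in the filter and 0.00459% of all, so the depots were not shown to respond differently. Averaged over both depots, 2 of the 9 genes rose, beside 76.4% of the probe sets in the filter and 17% of all: Sema3c by 0.64 (adjusted p = 0.0187 from limma) and F3 by 0.62 (adjusted p = 0.0365 from limma). This average too was added after the values had been seen, and it shares its arrays with the 2 changes it combines. With the array labelled SD viAP replicate 4 dropped, Sema3c was called at 0.83 and F3 at 0.71 was not (adjusted p = 0.0657 from limma), and Pi16 and Icam1 were called at 0.51 and 0.54.

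Other genes of the same cell states were also called after HFD. Of the 23 interstitial progenitor genes, 13 rose and 0 fell in viAPs and 7 rose and 0 fell in scAPs. Heg1, a transmembrane protein gene, rose by 1.53 in viAPs (adjusted p = 0.00204 from limma), and Pcsk6, a proprotein convertase gene, rose by 1.08 there and by 1.01 in scAPs. Of the 18 committed preadipocyte genes, 8 rose and 1 fell in viAPs and 9 rose and 0 fell in scAPs. These counts stand beside the 72.7% of the filter called in viAPs and the 38.2% called in scAPs, with 19 interstitial and 16 committed genes in the filter, and are not particular to the lists. The adhesion molecule gene Vcam1 rose by 1.32 in viAPs and by 1.53 in scAPs, and Cxcl14 rose by 1.67 in scAPs. With the array labelled SD viAP replicate 4 dropped, the interstitial counts were 9 and 7 and the committed counts 8 and 10 that rose. Of the 10 regulatory genes, 2 rose and 1 fell in viAPs and 0 passed in scAPs. There 5 had HFD arrays below SD arrays and 1 had them above, beside 69.7% of the filter and 40.5% of all probe sets without overlap. With that array dropped, 0 rose and 1 fell in viAPs and 1 fell in scAPs. Endothelial markers moved in the same comparison: 8 of 12 were called higher in scAPs after HFD (3 with that array dropped), and their part in these changes was not tested.

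Partners of the 9 proteins were measured by 18 of 19 listed genes. Among receptors of semaphorins, Nrp1 rose in scAPs by 0.83 (adjusted p = 0.0193 from limma), Plxnd1 rose there by 0.89 (adjusted p = 0.0085 from limma) and Plxna2 rose in viAPs by 0.83 (adjusted p = 0.0384 from limma). Plxna2 exceeded a log2 level of 7 on 1 array only, at 7.12 on HFD viAP replicate 5. Its call was lost when the array labelled SD viAP replicate 4 was dropped. Itgb1, a subunit of the integrin that binds the Clec11a protein, rose by 1.26 in viAPs and by 0.50 in scAPs. Ada, whose enzyme docks on DPP4, rose 2.54-fold in scAPs (adjusted p = 0.0114 from limma). F2r, a thrombin receptor gene, was higher in HFD viAPs than in HFD scAPs by 1.87 (adjusted p = 0.0422 from limma). Its levels were 8.23, 8.54 and 8.02 on SD viAP replicate 3 and HFD viAP replicates 5 and 6, 6.49 on SD viAP replicate 4 and 6.00 to 6.60 in scAPs. The leukocyte integrin genes Itgal and Itgb2, partners of ICAM1, and the coagulation factor genes F7 and F10, partners of tissue factor, stayed below a log2 level of 7 on every array. In all, 3 partners rose in viAPs and 4 in scAPs, and 0 fell, with 9 of the 18 in the filter and the same background shares. With the array labelled SD viAP replicate 4 dropped, 5 rose in viAPs and 5 in scAPs. Of 11 measured NF-kB target genes, a set that often moves with Icam1, 5 rose and 1 fell in viAPs and 2 rose in scAPs. Of these 11 genes 5 were in the filter, with the same background shares of 72.7% and 38.2%, and Icam1 itself was not called in either depot. Their median change in viAPs was 0.52, and 0.32 with that array dropped.

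The 2 arrays of a group differed from each other in the same genes that mark the cell states. In SD scAPs all 6 interstitial markers were higher on replicate 1 than on replicate 2, by 0.80 for Dpp4 and 0.57 for Pi16 down to 0.18 for Cd55, whereas Icam1 was 0.48 and F3 1.19 higher on replicate 2. Clec11a went with the interstitial markers there, since its level on replicate 2 differed by -0.35 from that on replicate 1. In HFD scAPs all 6 were higher on replicate 8 than on replicate 7, by 0.87 for Dpp4, 0.75 for Cd55 and 0.54 for Anxa3, whereas Icam1 was 0.57, F3 0.34 and Clec11a 0.08 higher on replicate 7. The wider interstitial and committed lists divided in the same way in scAPs, and of these 2 groups the regulatory list did so in SD scAPs alone. Of the 23 other interstitial progenitor genes, 21 were higher on SD scAP replicate 1 and 21 on HFD scAP replicate 8, and of the 18 committed preadipocyte genes 12 were higher on SD scAP replicate 2 and 14 on HFD scAP replicate 7. Of the 10 regulatory precursor genes, 9 were higher on SD scAP replicate 2, but 6 were higher on HFD scAP replicate 8, the side of the interstitial genes. Among the 7315 expressed probe sets, 25.1% were higher on SD scAP replicate 2 than on replicate 1 and 58.3% on HFD scAP replicate 8 than on replicate 7. With 1 pair in each group these differences were not tested. They enter the standard errors above, since each limma test sets the group difference against the spread between such pools.

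In viAPs the 2 pairs differed from each other. The 2 HFD viAP arrays differed by at most 0.22 in any of the 9 genes. In direction the interstitial and the committed genes divided as in the scAP pairs, but by little. The median difference, replicate 6 minus replicate 5, was 0.05 for the 6 interstitial markers and -0.11 for the 3 others. On replicate 6, 5 of the 6 interstitial markers were higher, and all 3 others were higher on replicate 5. Of the wider lists, 15 of 23 interstitial progenitor genes were higher on replicate 6. On replicate 5, 15 of 18 committed preadipocyte and 6 of 10 regulatory precursor genes were higher. Among the 7315 expressed probe sets, 30.6% were higher on replicate 6 and 4978 were higher on replicate 5. The committed and regulatory counts thus leaned the way of the background. The 2 SD viAP arrays differed by 1.43 in Dpp4 and 1.42 in Clec11a, and 8 of the 9 genes were higher on replicate 4, Cd55 being lower by 0.58. Of the expressed probe sets, 45.1% were higher on replicate 4. So were 14 of 23 interstitial progenitor, 12 of 18 committed preadipocyte and 5 of 10 regulatory precursor genes. The interstitial and the committed genes thus did not divide between those 2 arrays. Depot identity genes, as given above, differed between the same 2 arrays.

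**Figure D5:**
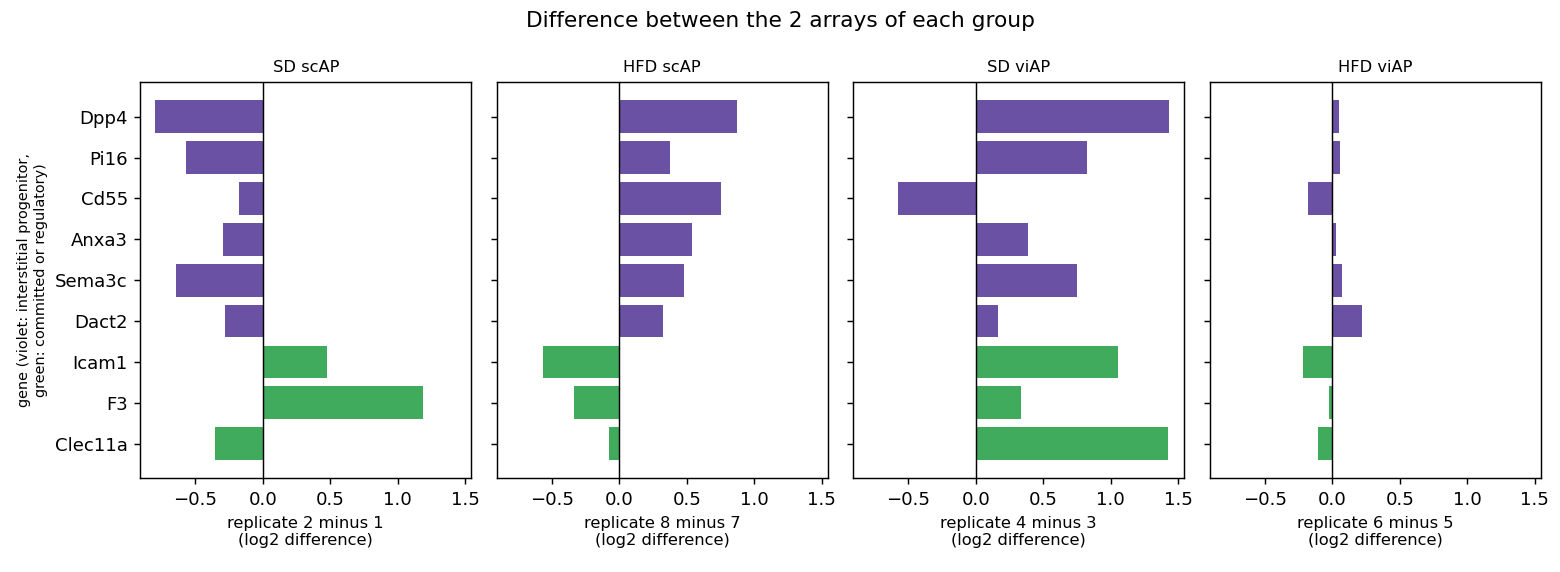
Difference in level (log2, horizontal axis) between the 2 arrays of each group for the 9 genes, with interstitial progenitor genes in violet and committed or regulatory genes in green. In both scAP groups the 6 violet bars point one way and Icam1 and F3 point the other way.

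The genes whose profiles over the 8 arrays lay nearest to Dpp4 among 7135 expressed candidates were Itm2a, Nox4 and Il18, with root mean square differences of 0.23, 0.23 and 0.28 after each gene was centred on its own mean. Itm2a, which encodes a small membrane protein, was at 11.16 and 10.64 in SD scAPs and at 8.89 and 9.96 in SD viAPs, so SD viAP replicate 4 lay between the depots for it too. Among the 9 genes, Pi16 was nearest to Dpp4 (0.41) and F3 farthest (1.49). The genes nearest to Icam1 were Rnf213, Lpl and Irf1, at 0.13, 0.14 and 0.18. Lpl, the lipoprotein lipase gene and a marker of committed preadipocytes, was at 11.27 and 11.47 in SD scAPs, 12.04 and 11.84 in HFD scAPs, 10.66 and 11.52 in SD viAPs and 11.37 and 11.22 in HFD viAPs. Like Icam1 it was lowest on SD viAP replicate 3 and highest on HFD scAP replicate 7. Irf1, an interferon response factor gene, had the same lowest and highest array. These are descriptions over 8 arrays, and genes that vary with the same pools can be near each other for any shared reason.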

How the data were processed

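The authors hybridized biotin-labelled cDNA of AP pools to Affymetrix Mouse Gene 1.0 ST arrays, read in 1 colour. The deposited table gave a linear-scale intensity, always a whole number, for each of 35556 probe sets on each array. The submitters' processing notes name RMA, which corrects background, equalizes arrays and summarizes probes, and Affymetrix Expression Console 1.1, whereas the study's methods name an R package. The antilog and rounding are not given in the sources used here. The log2 of each value was taken without rescaling, and array medians ran from 5.58 to 5.75.

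The annotation gave 21789 probe sets 1 symbol, 1621 several and 12146 none, and only the first kind was tested. All 8 arrays entered a single linear model in limma 3.58.1 and R 4.3.3, with a mean for each of the 4 groups (4 residual and 4.58 prior degrees of freedom, two-sided). Following the study's methods, Benjamini-Hochberg adjustment ran over 3076 probe sets that exceeded a log2 level of 7 on 3 or more arrays and whose mean absolute deviation was among the highest tercile. This filter held 7 of the 9 genes. Cd55 and Dact2 were adjusted over all 21789. An adjusted p under 0.05 made a call, with no minimum fold, and in a difference between depots a called gene is termed higher or lower. Each p-value sets a group difference against the spread between pools, moderated by the spread of other probe sets. An exact permutation of 2 arrays against 2 cannot give a p below 0.333. No batch was given in the labels.

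Named were the 9 genes, of each other list the called genes with the largest changes (at most 4) and uncalled examples by value, and the 3 profiles nearest to Dpp4 and to Icam1. The 9 genes and the lists were chosen with earlier results of these data known. The procedure was tested on simulated data. Alternatives are given in the closing section. Plots used Python 3.11.15 and matplotlib 3.10.9.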

Additional observations from a re-analysis of the deposited data

How the results depend on the processing

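Of the 9 genes, the number called with all settings as reported was 2 for HFD in viAPs, 0 for HFD in scAPs, 0 for the difference between these changes, 0 between depots on SD, 1 between depots on HFD, 5 between depots over both diets and 2 for HFD over both depots. With no filter these counts fell to 0 in viAPs, 0 between depots on HFD, 2 between depots over both diets and 0 for HFD over both depots. With the expression part of the filter alone they were 1 in viAPs, 0 between depots on HFD, 4 between depots over both diets and 1 for HFD over both depots. With log2 of the value plus 16 they were also 1, 0, 4 and 1. In both settings Sema3c was the gene that lost its call between depots over both diets. When a comparison was fitted on its own 4 arrays, limma called 1 in viAPs and 2 (Pi16 and F3) between depots on HFD. This model was not run for the difference of the changes or for the averages. Median centring called 1 in scAPs (F3). A second quantile normalization called 0 in viAPs, 2 between depots on SD (Dpp4 and Anxa3) and 1 for HFD over both depots (Clec11a). Without moderation 0 were called in viAPs, 0 between depots on HFD and 0 for either average. With the prior taken from all probe sets of the array, an alternative chosen after seeing the data, 1 was called in viAPs (Anxa3), 0 between depots on HFD, 3 between depots over both diets (Dpp4, Pi16 and Anxa3) and 1 for HFD over both depots (Sema3c). The share of the filter called moved with the setting too. Between depots over both diets it was 23.3% as reported and 0% without moderation. It was 5.52% with the expression filter alone and 31.7% under a second quantile normalization. The cause of these moves was not tested.

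Leaving out each of the 8 arrays in turn, the counts ran from 0 to 3 in viAPs, 0 to 1 in scAPs, 0 to 5 between depots on SD, 0 to 2 between depots on HFD, 0 to 6 between depots over both diets and 0 to 3 for HFD over both depots, and were 0 each time for the difference of the changes. The lone array of a group was then assumed to vary like the others. The share of the filter called also moved with the array left out, so these moves are not particular to the 9 genes. In viAPs the count was 3 without either SD scAP array, 1 without SD viAP replicate 3, HFD scAP replicate 7 or HFD scAP replicate 8, and 0 without either HFD viAP array. In scAPs the count of 1 came without SD scAP replicate 2 (F3) and without SD viAP replicate 3 or the array labelled SD viAP replicate 4 (Clec11a). Between depots on SD it was 3 without SD scAP replicate 2 and 5 when the array labelled SD viAP replicate 4 was dropped, and on HFD it was 2 without either SD viAP array and 0 without any HFD array. Between depots over both diets it was 2 without SD viAP replicate 3, 6 without SD viAP replicate 4 and 0 without SD scAP replicate 1 or any HFD array. For HFD over both depots it was 3 without SD viAP replicate 4, 1 without either SD scAP array or SD viAP replicate 3, and 0 without either HFD viAP array or HFD scAP replicate 8. No value called with all settings as reported changed sign under any alternative. Clec11a, called under alternatives only, did change sign. Across the alternatives it ran from -1.17 to 0.25 for HFD in viAPs and from -1.05 to 0.37 between depots on SD. The alternative of other probe sets of the same symbol gave no value, because each of the 9 genes had 1 probe set. No paired analysis was possible because each array number occurs once and the groups share no numbers.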
